A study of Mus musculus with 12 samples.

Results

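The genes described here are 10 regulators of the G1 phase of the cell cycle, taken by symbol from the 24470 genes of the count table: the D-type cyclins Ccnd2 and Ccnd3, the E-type cyclins Ccne1 and Ccne2, the kinases Cdk2, Cdk4 and Cdk6, the kinase inhibitors Cdkn1b and Cdkn2c, and Rb1. The D-type cyclin Ccnd1 and the inhibitors Cdkn1a and Cdkn1c are not among them. All 10 were found, and all 10 passed the filter on low counts that left 15572 genes for testing. RNA was sequenced from whole fetal testes of the mouse, collected at E14.5, with 3 testes pooled per library and 6 libraries of each genotype. Control embryos were Nr2f2 f/f, and cKO embryos were Wt1 CreER x Nr2f2 f/f, so that both groups carried the floxed allele, which holds a LacZ reporter, and only the cKO carried the Cre. In both groups the dams received tamoxifen on 2 days before collection. The Cre is driven from the Wt1 locus and reaches progenitors of several somatic lineages, and deletion in the interstitium was partial according to the study, so each cKO pool mixed deleted and undeleted cells. Nr2f2 encodes the nuclear receptor COUP-TFII, which marks the non-steroidogenic interstitial cells of the testis.

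A cell that has left mitosis decides in G1 whether to divide again. D-type cyclins bind CDK4 or CDK6, and E-type cyclins bind CDK2; together these kinases phosphorylate the retinoblastoma protein, which otherwise holds E2F transcription factors inactive, and released E2F then switches on genes of DNA replication. Inhibitors of the INK4 class block CDK4 and CDK6, whereas those of the CIP/KIP class act mainly on cyclin E with CDK2. In the fetal testis at this age, Sertoli cells and interstitial progenitors divide, fetal Leydig cells mostly do not, and male germ cells are entering a mitotic arrest in which p27, the product of Cdkn1b, and the retinoblastoma protein take part.

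D-type cyclins contact the retinoblastoma protein through a short Leu-x-Cys-x-Glu motif near their N terminus. The first 60 bases of the mouse coding sequences (GENCODE M21, build GRCm38, the same as mm10) are shown because the balance of Ccnd2 and Ccnd3 turned out to differ between the groups while this contact is encoded in both. Capitals mark the 15 bases found by a search for the codons of the motif, and Ccnd1 is given beside them.
Ccnd1: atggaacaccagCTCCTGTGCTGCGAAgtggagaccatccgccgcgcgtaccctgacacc
Ccnd2: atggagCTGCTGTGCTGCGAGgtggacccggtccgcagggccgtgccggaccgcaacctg
Ccnd3: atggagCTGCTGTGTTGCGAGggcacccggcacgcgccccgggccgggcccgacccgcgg
The motif is encoded at bases 7 to 21 in Ccnd2 and Ccnd3. Over their whole coding sequences, 68.8% of 855 aligned bases of Ccnd2 and Ccnd3 were identical, and the longest stretch without a difference was 14 bases. The longest such stretch was 18 bases between Ccne1 and Ccne2 and 20 bases between Cdk4 and Cdk6. No exon of the 10 genes overlapped an exon of another gene on the same strand in the GENCODE basic set.

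Total counts ranged from 7044531 to 39965574 in control and from 7322959 to 59404778 in cKO libraries. The 10 genes had between 46 counts (Cdkn2c in cKO replicate 5) and 22525 counts (Ccnd2). Nr2f2, the targeted gene, had 163 to 186 CPM in control and 50.2 to 119 CPM in cKO pools, where CPM is a gene's count relative to the size of its library, with sizes scaled by the TMM method. Xist, the RNA of the inactive X chromosome in XX cells, was over 100 CPM in 4 libraries labelled as testis (control replicate 1 and cKO replicates 3, 5 and 6), while the 8 others had 5.15 to 7.68 CPM. The Y-linked gene Ddx3y was present in all 12, at 58.3 to 75.2 CPM in these 4 and 78.7 to 106 CPM in the 8 others. The summed CPM of the ovarian somatic genes Foxl2, Fst, Wnt4 and Bmp2 was also higher in these 4 (247 in control replicate 1, and 100.1, 136 and 125 in cKO replicates 3, 5 and 6) than in the 8 others (45.9 to 74.8). Whether XX gonads were among the tissue pooled in these 4 libraries was not tested. Results for the 10 genes are therefore also given for the 8 libraries with low Xist (5 control and 3 cKO), a set chosen by Xist alone, in which the ovarian somatic genes still differed between the genotypes (values with the other markers). The cKO pools left out had 50.2, 53.6 and 75.4 CPM of Nr2f2, and those kept had 78.8, 78.9 and 119 CPM. The log2 fold change of Nr2f2 was -1.21 over all 12 libraries and -0.94 in the 8. The smaller set thus differs in Nr2f2 as well as in Xist, and their parts in any shift between the 2 fits were not tested. Interstitial, contractile, fetal Leydig, Sertoli, germ cell, endothelial and immune marker genes were all detected, and none of the listed markers was at 0 in every library. Nothing in the labels gives the litter of a pool, so p-values measure the spread between these pools. Because the samples are whole testes, fewer cells of a type and less RNA per cell cannot be told apart in any result below.

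Rb1 and Ccnd2 rose in cKO testes, and the other 8 genes did not pass the test (adjusted p under 0.05 in edgeR's quasi-likelihood test over all genes). Rb1 was 1.35 times and Ccnd2 1.28 times as high in cKO as in control testes. Values below control were found for Ccnd3, Cdk2, Cdk4 and Cdkn2c; edgeR called none of them lower, 3 had an unadjusted p under 0.05, and of the other tools DESeq2 called 2 lower and limma-voom 0. Over all genes tested, edgeR called 8.13% in either direction, 3.28% higher and 4.85% lower, against 2 of these 10 higher and 0 lower. DESeq2 called 11.6% of all genes, 5.28% higher and 6.27% lower. The groups of 6 did not overlap in the same 2 of the 10 genes and in 5.52% of all genes, with all cKO above in 2.39% and all cKO under in 3.13%. The median log2 fold change (cKO relative to control) of the 10 genes was 0.15, and that of all genes 0.0030. In the 8 libraries with low Xist, where 7.08% of genes were called, 3.68% higher and 3.39% lower, Rb1, Ccnd2 and Cdk6 were called higher and Cdk2 lower, and the median of the 10 was -0.094.

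**Figure D1:**
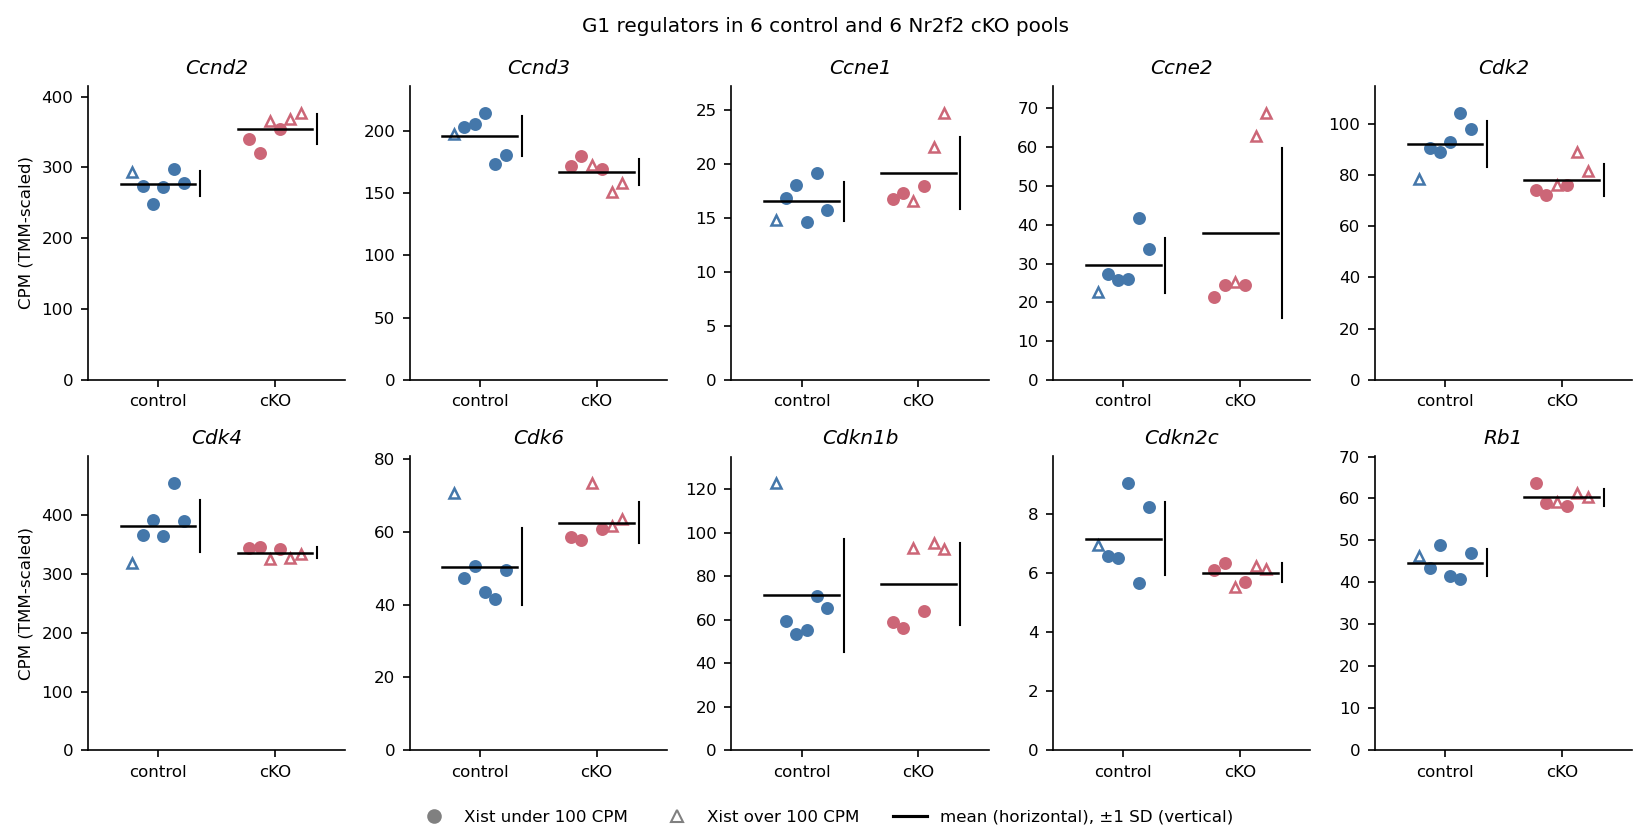
CPM of the 10 genes in each pool, with control pools on the left and cKO pools on the right of each panel; open triangles are libraries with Xist over 100 CPM, horizontal lines are group means and vertical lines ±1 SD. All 6 cKO pools lie above all 6 control pools for Rb1 and Ccnd2, and Ccne2 is high in 2 cKO pools.

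Levels of different genes were compared as CPM per kb of exon, from the union of exons in the GENCODE basic set. In control testes Cdk4 was the most abundant of the 10, with 185.5 ± 21.7 CPM per kb (SD, n = 6 pools), followed by Ccnd3 with 80.0 ± 6.44, Ccnd2 with 41.3 ± 2.63 and Cdk2 with 38.2 ± 3.64. Cdkn1b had 15.7 ± 5.73 CPM per kb, Rb1 9.60 ± 0.69, Ccne2 9.23 ± 2.19, Ccne1 8.27 ± 0.90, Cdk6 4.38 ± 0.91 and Cdkn2c 2.67 ± 0.46. The ranges of Ccnd2 and Cdk2 overlapped between control pools, as did those of Rb1 and Ccne2 and of Ccne2 and Ccne1. The ranges thus did not separate these neighbours, and their order within each pool was not tested. In cKO testes the means stood in the same order. With the exons of the comprehensive GENCODE set, which gives Ccnd3 a longer exon union, Ccnd2 stood above Ccnd3, Cdkn1b above Cdk2 and Ccne2 above Rb1, so the order within these 3 pairs depends on the gene model.

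Rb1 (Entrez Gene 19645, chromosome 14 of mm10 from 73195502 to 73325791, minus strand) encodes the retinoblastoma protein, the brake that the G1 kinases release. Its level ran from 40.9 through a median of 44.9 to 48.9 CPM in control pools, and from 58.2 through 59.9 to 63.6 CPM in cKO pools. Every cKO pool was above every control pool, and the pools of each group lay close together. The log2 fold change was 0.43, with a standard error of 0.061 (edgeR's quasi-likelihood test, adjusted p = 0.000746), and it was 0.45 (adjusted p = 0.00892, edgeR) in the 8 libraries with low Xist. Leaving out each library in turn gave values from 0.41 to 0.46, all called. The genes of the related pocket proteins did not pass the test. Rbl1, which encodes p107, had -0.18 (adjusted p = 0.12, edgeR), and Rbl2, which encodes p130, had -0.096 (adjusted p = 0.375, edgeR). Whether Rb1 differed from them was not tested. Per kb of exon, Rb1 made up 31.6% to 35.4% of the RNA of the 3 pocket proteins in control pools and 40.4% to 44.8% in cKO pools. These shares did not overlap with either exon set, and the summed level was 27.9 to 30.5 CPM per kb in control and 29.4 to 31.5 in cKO pools.

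Ccnd2 (Entrez Gene 12444, chromosome 6 from 127125708 to 127151048, minus strand) encodes cyclin D2, an activating partner of CDK4 and CDK6. Control pools had 248 to 297 CPM with a median of 276, and cKO pools 319.8 to 377 CPM with a median of 359.7. The groups were apart, and the 3 highest cKO values were those of replicates 6, 5 and 3, the libraries with high Xist. The log2 fold change was 0.35 ± 0.063 (SE; adjusted p = 0.00328, edgeR), and in the 8 libraries with low Xist it was 0.31 (adjusted p = 0.0398, edgeR). It was called in all 12 fits that left out 1 library, with values from 0.32 to 0.38.

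Ccnd3 (Entrez Gene 12445, chromosome 17 from 47505051 to 47599689, plus strand) encodes cyclin D3, which has the same kinase partners. It was 173 to 214 CPM in control pools (median 200.3) and 151 to 179 CPM in cKO pools (median 171), and 5 of 6 cKO pools lay under every control pool. Its log2 fold change of -0.23 (standard error 0.068) stood just outside the threshold in edgeR (adjusted p = 0.0535), and DESeq2, the authors' tool, called it (adjusted p = 0.0104). In the 8 libraries with low Xist the value was -0.17 (adjusted p = 0.22, edgeR).

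The balance of these paralogs was tested directly. The log2 ratio of Ccnd2 to Ccnd3 CPM was 0.50 ± 0.19 in control and 1.08 ± 0.17 in cKO pools (SD, n = 6 each), a difference of 0.58 (exact permutation test, two-sided, with 924 splits; p = 0.0022, the smallest these splits can give, or 0.0065 after adjustment over 3 pairs). Ccnd2 had 1.21 to 1.72 times the CPM of Ccnd3 in control pools and 1.78 to 2.44 times in cKO pools, without overlap. The difference was 0.47 in the 8 libraries with low Xist (exact permutation p = 0.0357 over 56 splits), and 0.53 to 0.64 when each library was left out. The third D-type cyclin, Ccnd1, rose by a log2 fold change of 1.02 (adjusted p = 0.000177, edgeR). Per kb of exon, Ccnd3 took a smaller share of the D-type cyclin RNA in every cKO pool than in any control pool: it made up 56.6% to 62.7% in control and 42.7% to 52.6% in cKO pools. Ccnd2 made up 27.6% to 35.5% and 34.2% to 38.0%, with overlap, and Ccnd1 7.51% to 9.69% and 13.1% to 19.3%. The shares themselves depend on the gene model: with the comprehensive exon set Ccnd3 made up 33.3% to 39.0% in control and 21.9% to 29.6% in cKO pools, Ccnd1 12.9% to 17.1% and 21.1% to 28.1%, both again without overlap, and Ccnd2 43.9% to 53.5% and 49.3% to 52.1%. The D-type cyclins summed to 125 to 140.0 CPM per kb in control and 139 to 148 in cKO pools.

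**Figure D2:**
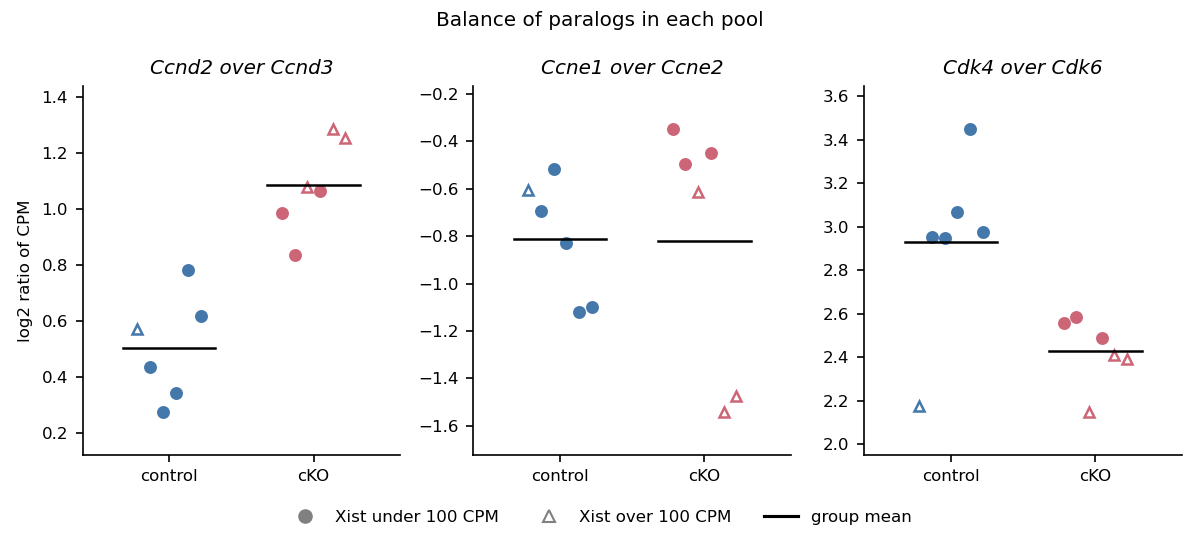
Log2 ratio of the CPM of each paralog pair in every pool, with group means as lines and libraries with Xist over 100 CPM as open triangles. The Ccnd2 to Ccnd3 ratio separates the groups, 5 of 6 control pools lie above all cKO pools for Cdk4 to Cdk6, and 2 cKO pools stand low for Ccne1 to Ccne2.

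**Figure D3:**
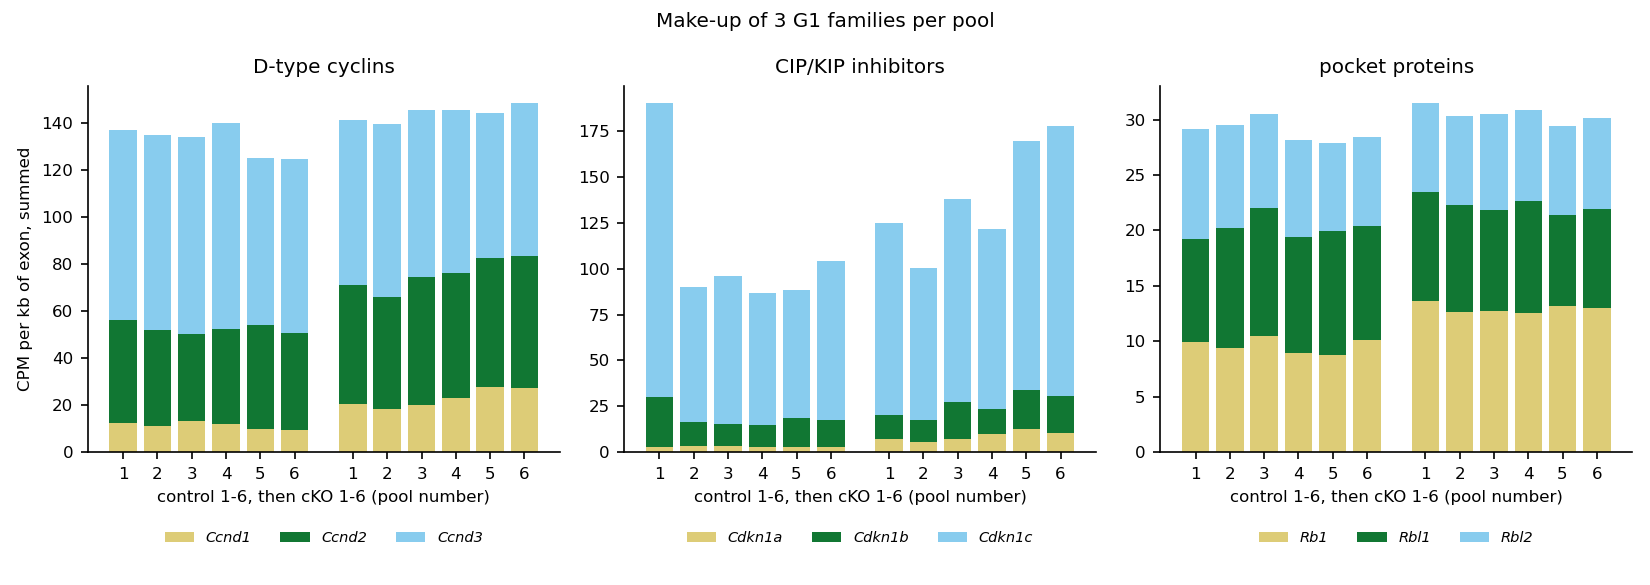
Stacked CPM per kb of exon of the D-type cyclins, the CIP/KIP inhibitors and the pocket proteins in each pool, control pools on the left and cKO pools on the right. Ccnd3 fills less and Ccnd1 more of the D-type column in every cKO pool, Rb1 fills more of the pocket protein column, and the CIP/KIP column is tallest in control pool 1.

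Cdk4 (Entrez Gene 12567, chromosome 10 from 127063603 to 127067283, plus strand) and Cdk6 (Entrez Gene 12571, chromosome 5 from 3343893 to 3531008, plus strand) encode the catalytic partners of the D-type cyclins. Cdk4 had 319 to 454 CPM in control pools (median 378) and 325 to 346 CPM in cKO pools (median 337). Its cKO values were all inside the control range, with control replicate 1 the lowest of all pools. Its log2 fold change was -0.18 (95% interval -0.34 to -0.021, adjusted p = 0.15, edgeR). Without control replicate 1 it was -0.23 and was called (adjusted p = 0.026, edgeR), and without control replicate 5, the highest pool, it was -0.12 (adjusted p = 0.244, edgeR). In the 8 libraries with low Xist it was -0.19 (adjusted p = 0.181, edgeR), and with Xist as a covariate -0.13 (adjusted p = 0.299, edgeR). Cdk6 had 41.4 to 70.5 CPM in control pools (median 48.4) and 57.6 to 73.3 CPM in cKO pools (median 61.1). Control replicate 1, at 70.5 CPM, stood among the cKO pools, and the 5 other controls, at 41.4 to 50.6 CPM, were under all of them. The log2 fold change of Cdk6 was 0.31 ± 0.12 (SE; adjusted p = 0.117, edgeR), and it was 0.43 without control replicate 1 (adjusted p = 0.00291, edgeR) and 0.35 in the 8 libraries with low Xist (adjusted p = 0.0281, edgeR). The summed CPM of the endothelial markers Pecam1, Cdh5, Kdr and Tek was 415 in control replicate 1 and 285 to 350 in the 11 others. Among cKO pools this sum was highest in replicate 2 (350 CPM), which was lowest in Cdk6 (57.6 CPM). It was 342 CPM in cKO replicate 3, which was highest in Cdk6 (73.3 CPM). Control replicate 1 was also the highest in the ovarian somatic genes. The part of either group of markers in the Cdk6 value was not tested.

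The log2 ratio of Cdk4 to Cdk6 was 2.93 ± 0.42 in control and 2.43 ± 0.16 in cKO pools (SD, n = 6 each), a difference of -0.50 (exact permutation p = 0.0173, two-sided, or 0.026 after adjustment over 3 pairs). It was -0.54 in the 8 libraries with low Xist (exact permutation p = 0.0179, the smallest that 56 splits can give) and from -0.65 to -0.40 when each library was left out, with an exact permutation p of at most 0.0476. At the median pool, Cdk4 had 7.82 times the CPM of Cdk6 in control and 5.47 times in cKO testes. Promoters of the 2 kinases (250 bases before to 50 after the start, RefSeq, build GRCm38.p6) are shown because their balance differed. The Cdk4 start used for this lies 68 bases before the start of the counted gene, and that of Cdk6 is the same in both. Capitals mark CACGTG, an E-box read the same on both strands, and AGGTCA or its reverse complement TGACCT, the nuclear receptor half-site, which share letters at 1 place in Cdk4.
Cdk4, chr10:127063285-127063584, plus strand: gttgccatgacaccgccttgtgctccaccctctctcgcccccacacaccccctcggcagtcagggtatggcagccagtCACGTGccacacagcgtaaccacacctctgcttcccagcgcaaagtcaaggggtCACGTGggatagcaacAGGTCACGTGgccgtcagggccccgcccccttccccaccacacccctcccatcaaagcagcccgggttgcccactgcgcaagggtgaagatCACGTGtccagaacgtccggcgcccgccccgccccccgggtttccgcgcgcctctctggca
Cdk6, chr5:3343643-3343942, plus strand: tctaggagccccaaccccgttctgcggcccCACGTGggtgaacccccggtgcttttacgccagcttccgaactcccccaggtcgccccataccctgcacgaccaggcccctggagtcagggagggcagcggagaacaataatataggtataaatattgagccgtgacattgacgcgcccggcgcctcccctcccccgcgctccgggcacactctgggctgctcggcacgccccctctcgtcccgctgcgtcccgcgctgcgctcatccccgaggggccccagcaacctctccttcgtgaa
The Cdk4 promoter held CACGTG 4 times and the Cdk6 promoter once. At least 1 CACGTG was present in 7.15% of the 32851 promoters of this length, and at least 4 in 0.0244% of them. E-boxes of this sequence are read by MYC and related factors. Myc had a log2 fold change of 0.25 (adjusted p = 0.123, edgeR) and that of Mycn 0.14 (adjusted p = 0.422, edgeR). AGGTCA occurred on either strand in 16.3% of all promoters, and once each in 1 promoter of Cdk4, of Ccnd3 and of Cdkn2c. The Cdkn2c promoter with AGGTCA also held 1 CACGTG, and its start lies 1384 bases from that of the counted gene. Neither TTTCGCGC nor TTTGGCGC, which are E2F sites, was found on either strand of the 9 promoters listed for 7 of the 10 genes; they occurred in 0.323% and 0.514% of all promoters. Ccnd2, Ccne2 and Rb1 had no entry.

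Cdk2 (Entrez Gene 12566, chromosome 10 from 128697939 to 128705051, minus strand) encodes the kinase that acts with E-type cyclins at the entry to S phase. It had 78.2 to 104 CPM in control pools (median 91.6) and 71.9 to 89.0 CPM in cKO pools (median 75.9), and 4 of 6 cKO pools lay under every control pool. The log2 fold change was -0.24 ± 0.075 (SE; adjusted p = 0.0676, edgeR), and it was called by DESeq2 (adjusted p = 0.0358). In the 8 libraries with low Xist it had 88.8 to 104 CPM in 5 control and 71.9 to 75.9 CPM in 3 cKO pools, and the log2 fold change was -0.35 (adjusted p = 0.022, edgeR).

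Ccne1 (Entrez Gene 12447, chromosome 7 from 38097984 to 38107490, minus strand) and Ccne2 (Entrez Gene 12448, chromosome 4 from 11191351 to 11204779, plus strand) encode the cyclins that activate CDK2, and both are classical E2F targets. Ccne1 had 14.6 to 19.1 CPM in control pools (median 16.3) and 16.5 to 24.7 CPM in cKO pools (median 17.7), a log2 fold change of 0.21 (95% interval -0.035 to 0.46, adjusted p = 0.264, edgeR). This value was 0.12 without cKO replicate 6, the highest pool (adjusted p = 0.504, edgeR), and 0.040 in the 8 libraries with low Xist (adjusted p = 0.816, edgeR). Ccne2 had 22.6 to 41.7 CPM in control pools (median 26.6) and 21.3 to 68.9 CPM in cKO pools (median 24.9). Its mean was raised by cKO replicates 5 and 6, with 63.0 and 68.9 CPM, whereas the 4 other cKO pools had 21.3 to 25.3 CPM, at the level of the lower controls. The log2 fold change of Ccne2 was 0.36 (95% interval -0.28 to 1.00, adjusted p = 0.466, edgeR) over all 12 libraries and -0.38 in the 8 with low Xist (adjusted p = 0.145, edgeR). Without cKO replicate 5 alone it was 0.18 and without cKO replicate 6 alone 0.078, neither called. The meiosis genes Stra8, Sycp3, Sycp1 and Rec8, whose products act in germ cells that enter meiosis, were highest in the same 2 pools: they summed to 471 CPM in cKO replicate 5, 462 in cKO replicate 6, 266 in control replicate 1, 265 in cKO replicate 3 and 93.6 to 156 CPM in the 8 libraries with low Xist. Ccne2 in control replicate 1 (22.6 CPM) and cKO replicate 3 (25.3 CPM) was not raised, and the part of meiotic cells in its level was not tested. The log2 ratio of Ccne1 to Ccne2 was -0.81 ± 0.25 in control and -0.82 ± 0.54 in cKO pools (difference -0.0093, exact permutation p = 0.968, adjusted p = 0.968 over 3 pairs). With high-Xist libraries left out the difference was 0.42, of the opposite sign (exact permutation p = 0.0536 over 56 splits). It was -1.54 and -1.47 in cKO replicates 5 and 6 and -0.61 to -0.35 in the other cKO pools.

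Cdkn1b (Entrez Gene 12576, chromosome 6 from 134920401 to 134925525, plus strand) encodes p27, a CIP/KIP inhibitor that accumulates in cells leaving the cycle. It had 53.6 to 123 CPM in control pools (median 62.5) and 56.1 to 95.1 CPM in cKO pools (median 78.1). The high values were those of the 4 libraries with high Xist: 123 CPM in control replicate 1, and 93.1, 95.1 and 92.3 CPM in cKO replicates 3, 5 and 6. The 8 other libraries had 53.6 to 71.2 CPM. These 4 libraries were above all others whatever their genotype, and the log2 fold change was 0.099 (95% interval -0.35 to 0.54, adjusted p = 0.793, edgeR) over all libraries and -0.021 (adjusted p = 0.91, edgeR) in the 8. Without control replicate 1 alone it was 0.33 (adjusted p = 0.133, edgeR), and over the fits that left out 1 library it ran from 0.024 to 0.33, none called. For the related Cdkn1c the value was 0.32, which did not pass the test (adjusted p = 0.338, edgeR), and in the 8 libraries with low Xist it was again 0.32 (adjusted p = 0.0727, edgeR). Cdkn1c was likewise above all others in the 4 libraries with high Xist, at 111 to 160 CPM per kb of exon against 70.0 to 105. Cdkn1a, a target of p53, rose by 1.56 (adjusted p = 0.000174, edgeR). Per kb of exon, Cdkn1b made up 12.3% to 17.7% of CIP/KIP RNA in control and 10.4% to 14.8% in cKO pools, and Cdkn1c 79.1% to 84.3% and 80.1% to 83.9%, both with overlap. Cdkn1a made up at most 3.54% in control and 5.11% to 7.89% in cKO pools, without overlap.

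Cdkn2c (Entrez Gene 12580, chromosome 4 from 109660876 to 109666756, minus strand) encodes p18, an INK4 inhibitor of CDK4 and CDK6. With 5.66 to 9.04 CPM in control pools (median 6.77) and 5.54 to 6.35 CPM in cKO pools (median 6.12), its log2 fold change was -0.25 (95% interval -0.50 to 0.0018, adjusted p = 0.201, edgeR). The groups overlapped, and control replicates 4 and 6, at 9.04 and 8.24 CPM, stood highest. In the 8 libraries with low Xist the value was -0.24 (adjusted p = 0.31, edgeR). Of the other INK4 genes, Cdkn2a had a log2 value of 0.32 (adjusted p = 0.25, edgeR), Cdkn2b one of -0.11 (adjusted p = 0.767, edgeR) and Cdkn2d one of -0.098 (adjusted p = 0.667, edgeR).

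**Figure D4:**
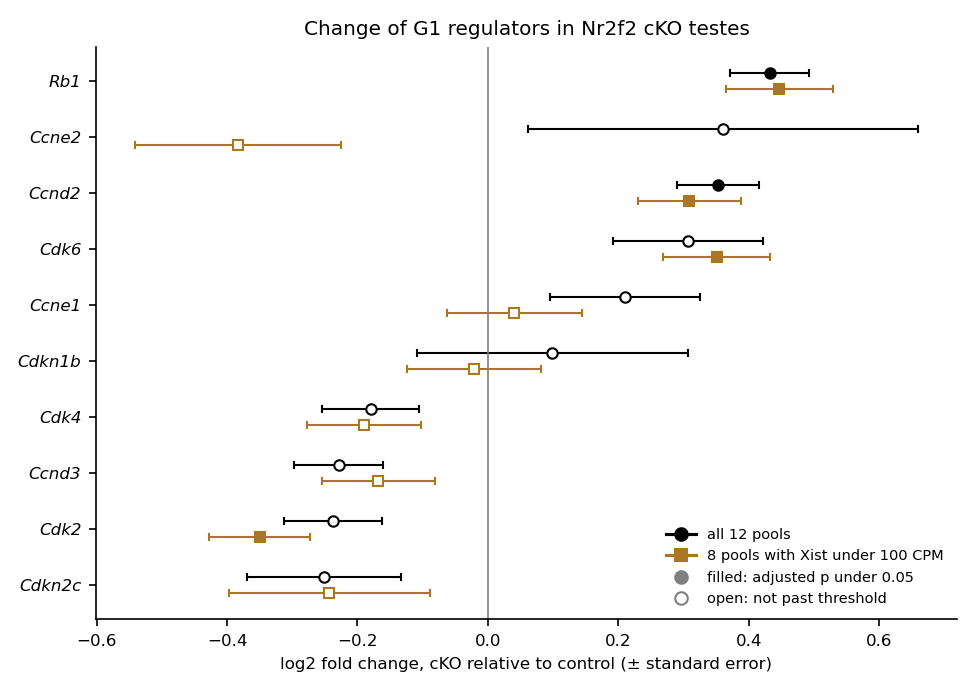
Log2 fold change of the 10 genes in cKO relative to control testes with its standard error, over all 12 pools (circles) and over the 8 pools with Xist under 100 CPM (squares); filled symbols passed an adjusted p of 0.05. Rb1 and Ccnd2 are filled in both fits, Cdk6 and Cdk2 only in the 8 pools, and Ccne2 and Cdkn1b change sign.

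The rest of the G1/S network was read from lists of genes by role, beside 3.28% of all genes called higher, 4.85% called lower and 49.4% with a negative value. Of 16 other G1 regulators, Ccnd1 and Cdkn1a were called higher and none lower by edgeR, with a median log2 fold change of -0.014; at an unadjusted p under 0.05 edgeR had 4 higher (Ccnd1, Cdkn1a, Cdc25a and Myc) and 3 lower (Ccna2, Rbl1 and Cdk7), DESeq2 called 1 lower and limma-voom 0. Of 10 E2F and DP factors edgeR, DESeq2 and limma-voom called 0, and their values lay between -0.20 (E2f6) and 0.17 (E2f3), the 2 with an unadjusted p under 0.05. The MuvB core represses cell cycle genes when joined to p107 or p130 in the DREAM complex, and activates G2/M genes when joined to B-MYB, the product of Mybl2. Among 6 genes for these subunits, Lin54 fell from 34.1 to 28.5 CPM (log2 fold change -0.25, adjusted p = 0.0257, edgeR), with all 6 cKO pools under all controls. None of the 6 was called higher by edgeR, DESeq2 or limma-voom, and Mybl2 (0.24, adjusted p = 0.175, edgeR) was the 1 with a higher value at an unadjusted p under 0.05. Of 14 genes that act in the ubiquitination of G1 regulators (subunits, cofactors and adaptors of ligases, and Usp28, a deubiquitinase that opposes FBXW7), 2 were called lower and 1 higher. Skp2, which encodes the F-box protein that targets p27, fell by 0.38 on the log2 scale (standard error 0.09, adjusted p = 0.0174, edgeR), and its cofactor Cks1b fell by 0.39 ± 0.097 (SE; adjusted p = 0.0232, edgeR). Fbxw7, which encodes the F-box protein that targets cyclin E, rose by 0.28 ± 0.065 (SE; adjusted p = 0.0164, edgeR). Of 16 E2F targets of S phase, Cdc6 (log2 fold change -0.40, adjusted p = 0.0379, edgeR) and Tyms (-0.38, adjusted p = 0.0363, edgeR) were called lower and none higher, and 12 of 16 had negative values. DESeq2 called 3 of these targets lower and limma-voom 0, while 5 were lower and 0 higher at an unadjusted p under 0.05 in edgeR. Of 10 G2/M markers, Cdk1 was called lower (-0.40, adjusted p = 0.0492, edgeR), and 8 of 10 were negative. DESeq2 called 1 of these markers lower and limma-voom 0. In each of Skp2, Cks1b, Cdc6, Tyms and Cdk1 the groups of 6 overlapped.

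In the 8 libraries with low Xist, Skp2 (-0.37, adjusted p = 0.0124, edgeR), Cks1b (-0.44, adjusted p = 0.0192, edgeR), Cdc6, Tyms and Cdk1 were again called lower, while Lin54 (-0.27, adjusted p = 0.0556, edgeR) and Fbxw7 (0.20, adjusted p = 0.0875, edgeR) were not called, Lin54 with a fold change no smaller than over all 12 libraries. Pcna, Tk1 and Ccna2 were called lower there, with log2 fold changes of -0.46, -0.36 and -0.41. Cell type markers differed between the groups as well. The 5 interstitial markers summed to 1110 to 1417 CPM in control and 630.3 to 1139 CPM in cKO pools, with 3 of 5 called lower. Contractile markers of smooth muscle and peritubular cells summed to 562 to 689.9 CPM in control and 334 to 512 CPM in cKO pools, without overlap and with 4 of 4 called lower. Among the 8 low-Xist libraries 3 of these 4 were called, and Mylk went from -0.31 to -0.15 (adjusted p = 0.165, edgeR). Fetal Leydig markers summed to 1561 to 2910.4 CPM and 841 to 1745 CPM, with 4 of 5 called lower. Immune markers summed to 25.4 to 33.3 CPM and 36.7 to 46.7 CPM, without overlap and with 2 of 4 called higher. Sertoli cell markers summed to 424 to 884 CPM and 498 to 885 CPM, with 0 of 4 called by edgeR, DESeq2 or limma-voom and 0 at an unadjusted p under 0.05. Germ cell markers summed to 924 to 1769 CPM and 1323 to 1667 CPM, with 0 of 4 called by any of these tools and, at an unadjusted p under 0.05, 0 in edgeR and 1 higher in DESeq2 and in limma-voom. Genes of male germ cells (Nanos2, Piwil4, Tdrd9 and Dnmt3l) summed to 121 to 197 CPM in control and 51.4 to 148 CPM in cKO pools, and 1 of 4 was called lower: Dnmt3l had a log2 fold change of -1.43 (adjusted p = 0.0412, edgeR) and one of -1.16 in the 8 libraries with low Xist (adjusted p = 0.011, edgeR). There, Nanos2 was called higher (0.37, adjusted p = 0.032, edgeR). Of 4 endothelial markers, whose sums overlapped, Tek was called lower (-0.41, adjusted p = 0.0352, edgeR) with 5 of 6 cKO pools under all controls, and its value was -0.33 (adjusted p = 0.182, edgeR) in the 8 libraries. Of the 4 ovarian somatic genes, Wnt4 was called lower over all 12 libraries (-0.77, adjusted p = 0.0249, edgeR), with all 6 cKO pools under all controls. Among the 8 low-Xist libraries all 4 were called by edgeR: Wnt4 was lower (-0.84, adjusted p = 0.00686), and Foxl2 (1.45, adjusted p = 0.00958), Fst (0.62, adjusted p = 0.0216) and Bmp2 (0.67, adjusted p = 0.0379) were higher. The part of these shifts in the values of Rb1, Ccnd2 and the other genes was not tested.

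**Figure D5:**
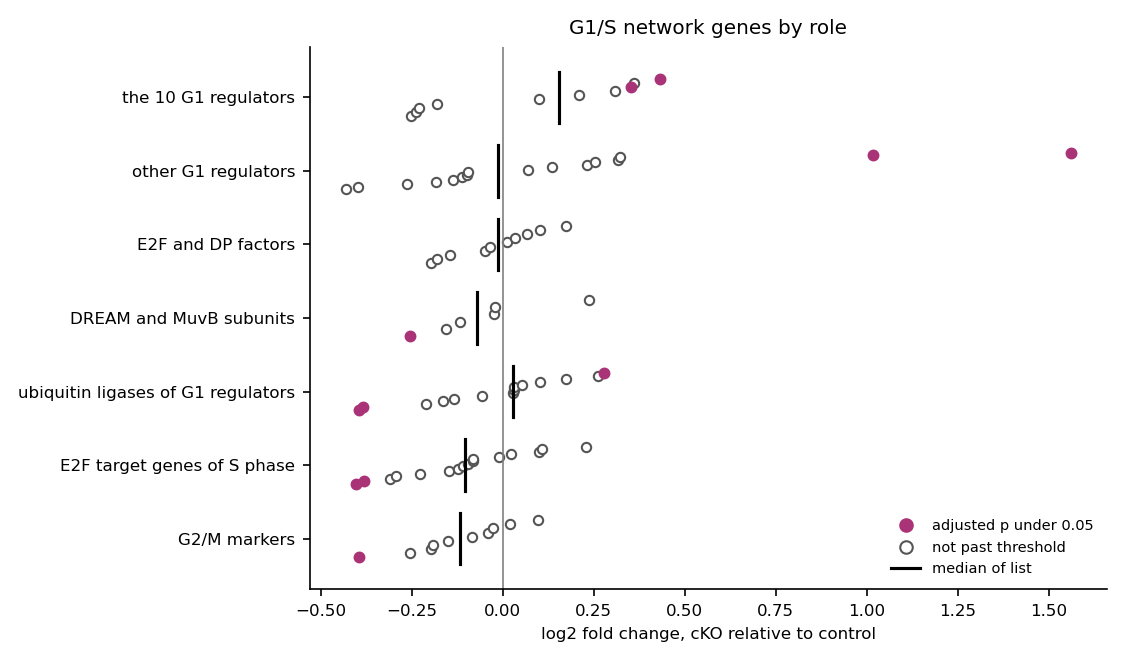
Log2 fold change in cKO relative to control testes of each gene of the G1/S network, grouped by role, with called genes filled and the median of each list as a bar. Ccnd1 and Cdkn1a lie furthest to the right, and most E2F targets and G2/M markers lie left of 0.

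The genes whose pattern over the 12 libraries was nearest to that of a called gene were sought among the 11881 genes that averaged 5 CPM or more, by the root mean square distance between standardized log2 CPM. Nearest to Rb1 were Myh8 (distance 0.28), Nova1 (0.29) and Prtg (0.31). For Ccnd2 these were Shisa9 (0.25), Tmem150c (0.26) and Cpe (0.33). All 6 were called higher in cKO testes; the distance includes the difference between the groups, so this follows from how they were found. The genes nearest to Cdkn2c, which had the lowest fold change of the 10, were Rnf208 (0.55), Septin5 (0.56) and R3hcc1 (0.56), at greater distances.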

How the data were processed

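Testes of 6 control and 6 Nr2f2 cKO pools were sequenced as strand-specific libraries of polyadenylated RNA. The authors trimmed read pairs with Trim Galore 0.6.7, aligned them to mm10 with STAR 2.5, counted them by strand with featureCounts (Subread 1.5.0-p1) on RefSeq Curated gene models, and deposited raw counts per gene. Here these counts were tested with edgeR 4.0.16 (R 4.3.3): TMM scaling, filterByExpr (minimum count 10, minimum total 15), glmQLFit and glmQLFTest without covariates, and Benjamini-Hochberg adjustment over all 15572 genes. Standard errors are the fold change divided by the square root of F. Log2 CPM used a prior count of 2. Paralog ratios were compared by exact permutation tests. Exon lengths and coding sequences came from GENCODE M21 and were aligned with Biopython 1.88. DESeq2 1.42.0 and limma 3.58.1 were alternatives, beside other scalings, filters, a replicate block, Xist as a covariate, and leaving out libraries. The tests across genes were first tested on simulated data. The genes and lists were chosen with earlier results of these data known. Named genes are the 10, the genes of the lists, and the 3 nearest patterns of called genes and of those with the highest and lowest fold change. Motifs were chosen after the counts were seen. Supplementary tables of the study were not used here.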

Additional observations from a re-analysis of the deposited data

Results flagged for a closer look

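In 3 of 26 groups of 6 values (the 10 genes and 3 ratios in each genotype), 1 library stood apart from the others by Dixon's criterion, which chance meets in about 1 in 20 groups. Cdk6 had 70.5 CPM in control replicate 1, where the next control had 50.6 CPM, and 73.3 CPM in cKO replicate 3, where the next cKO pool had 63.4 CPM. Cdkn1b had 123 CPM in control replicate 1, against 71.2 CPM in the next control. Both libraries are among the 4 with Xist over 100 CPM, and the cause was not tested.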

How the results depend on the processing

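Of 210 refits of the 10 log2 fold changes, 194 kept direction and side of the threshold, 13 kept direction and passed it, and 3 reversed: Ccne2 (-0.38) and Cdkn1b (-0.021) without the libraries with Xist over 100 CPM, and Cdkn1b (-0.11) with Xist as a covariate. Rb1 and Ccnd2 were called in all 21 alternatives each. The number of the 10 called lower, 0 of 10, was 1 with DESeq2 size factors, 2 with DESeq2 and 1 without the libraries with high Xist, and 0 to 3 when 1 library was left out, the 3 without control replicate 1 (Ccnd3, Cdk2 and Cdk4); at an unadjusted p under 0.05, Ccnd3, Cdk2 and Cdk4 were lower in edgeR. Over all genes, 510 were called higher and 756 lower; DESeq2 called 878 higher, and leaving out 1 library gave 319 to 1471 higher and 497 to 1635 lower, the most without control replicate 1 and the fewest without cKO replicate 4. The Ccne1 to Ccne2 difference was -0.10 to 0.14 when 1 library was left out and 0.42 (exact permutation p = 0.0536) without the high-Xist libraries. The cause of these shifts was not tested. Same-numbered pools did not deviate together (correlations -0.33 to 0.24), so the numbers do not pair them; with the replicate number as a block, 392 genes were called higher and 539 lower, 2 of the 10 lower (Ccnd3 and Cdk2), and the Cdk4 to Cdk6 difference of -0.50 had an exact sign-flip p of 0.0938. The spread between pools limits what can be said of the genes not called: the 95% interval of Ccne2 ran from -0.28 to 1.00 and that of Cdkn1b from -0.35 to 0.54.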
